A study of Mus musculus with 9 samples.

Results

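The chemokine Ccl20 and its receptor Ccr6 were followed across mouse skin under 3 treatments. Every probe whose symbol in the platform's probe annotation was CCL20 or CCR6, ignoring case, was taken. This gave 2 of the 26423 probes on the array, 1 for each gene, so no second probe could be set beside either. Total RNA from female BALB/c mice was labelled with Cy5 and hybridised to 9 arrays, 3 per group. Mock mice carried Vaseline cream on the shaved back, IMQ mice carried imiquimod there, an agonist of toll-like receptor 7 that produces psoriasis-like inflammation, and the vanillin group carried imiquimod and also took 100 mg/kg vanillin by mouth. All groups were treated for 7 days. Age, pooling of animals and the number of mice behind the arrays were not given in the sources used here, so a p-value measures the spread between arrays, which may be technical.

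CCL20 is a small secreted CC chemokine that epidermal keratinocytes make under interleukin-17, interleukin-1 and tumour necrosis factor, in part through NF-kB. CCR6, a receptor coupled to Gi proteins, is its only known chemokine receptor, and it guides interleukin-17-producing T cells, including gamma delta T cells of the skin, as well as B cells, regulatory T cells and some dendritic cells. Some beta-defensins can also bind CCR6. The pair is one route by which the interleukin-23 and interleukin-17 axis, named in the title of the series, draws more interleukin-17-producing cells into psoriatic skin. In these bulk samples, fewer cells of a type and less RNA per cell cannot be told apart.

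Ccl20 lies on chromosome 1 from 83116766 to 83119167 and Ccr6 on chromosome 17 from 8236041 to 8258519, in the mouse build GRCm38.p6 (RefSeq). Since both genes rose with imiquimod, the 250 bases before each RefSeq start are shown for them, 1 start for Ccl20 and 2 for Ccr6, all on the plus strand and 5′ to 3′. The first Ccr6 start in the promoter table lies at 8236043, past the start of the gene as given above, so that window ends 2 bases inside the gene. Capitals mark letters that match a searched motif.
Ccl20, chr1:83116516-83116765: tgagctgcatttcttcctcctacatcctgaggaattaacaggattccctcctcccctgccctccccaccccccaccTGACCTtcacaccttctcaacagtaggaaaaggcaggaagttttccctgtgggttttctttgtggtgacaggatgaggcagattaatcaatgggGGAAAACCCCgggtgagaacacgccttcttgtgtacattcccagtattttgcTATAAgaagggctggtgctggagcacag
Ccr6 first start, chr17:8235793-8236042: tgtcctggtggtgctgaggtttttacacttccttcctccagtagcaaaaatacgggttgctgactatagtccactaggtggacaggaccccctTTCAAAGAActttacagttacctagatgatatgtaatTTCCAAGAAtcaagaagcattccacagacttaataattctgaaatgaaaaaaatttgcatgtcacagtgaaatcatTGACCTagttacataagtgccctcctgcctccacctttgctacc
Ccr6 second start, chr17:8242276-8242525: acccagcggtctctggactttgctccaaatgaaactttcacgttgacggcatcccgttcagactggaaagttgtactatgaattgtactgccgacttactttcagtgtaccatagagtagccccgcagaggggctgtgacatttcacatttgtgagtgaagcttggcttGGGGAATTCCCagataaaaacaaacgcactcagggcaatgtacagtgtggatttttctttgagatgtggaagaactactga
The motifs, read on both strands, were the NF-kB consensus, the AP-1 motif TGANTCA, the STAT motif TTCNNNGAA, the ROR core motif AGGTCA and the TATA letters TATAA. With the base before the start counted as -1, Ccl20 held an NF-kB consensus match at -80 to -71, a ROR core motif at -174 to -169 and TATA letters at -28 to -24. The first Ccr6 start had STAT matches at -157 to -149 and at -120 to -112 and a ROR core motif at -44 to -39. The second had 2 overlapping NF-kB consensus matches spanning -81 to -71. No window had the AP-1 letters. Of 32841 upstream windows of this length in RefSeq, 7.25% held the NF-kB consensus, 7.02% the STAT motif, 14.0% the ROR core motif, 22.8% the TATA letters and 6.75% the AP-1 motif. A match of letters shows neither binding nor use of the site.

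Before the results on the pair, the tissue was checked, because the tissue label reads skin while the extraction text names muscle. The 9 keratinocyte markers had a median intensity percentile of 99.2 among all probes, the 8 measured skeletal muscle markers one of 98.7 and the 10 adipocyte markers one of 95.6. Between arrays the deposited intensities were already equalised, with medians of 629 to 631. With 3 arrays a group, precision rests on few arrays.

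Ccl20, the ligand, was lowest in mock skin, highest in IMQ skin and between them with vanillin. Its linear intensity read 842, 930 and 1027 on the 3 mock arrays. It read 2433, 2501 and 2250 on the IMQ arrays. On the vanillin arrays it read 1503, 1388 and 1362. No array of one group overlapped another group. On the log2 scale the mean level was 9.86 ± 0.14 in mock skin, 11.22 ± 0.08 after imiquimod and 10.47 ± 0.08 with vanillin (SD, n = 3 arrays each). The probe lay above the array median throughout, at percentiles from 54.8 to 71.5 of the probes on its own array.

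Ccr6, the receptor, was low in mock skin and high in both treated groups. Its linear intensity read 406, 424 and 481 in mock. It read 1051, 1173 and 1010 in IMQ skin. With vanillin it read 1056, 1100 and 980. The mock arrays stood apart from all others, while the ranges of the IMQ and vanillin arrays overlapped. Its mean log2 level was 8.77 ± 0.13 in mock skin, 10.07 ± 0.11 after imiquimod and 10.03 ± 0.08 with vanillin (SD, n = 3 arrays each), so the upper levels did not differ beyond their spread. The probe moved from percentiles of 42.4 to 45.3 on the mock arrays to 57.1 to 60.0 on the treated ones.

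**Figure D1:**
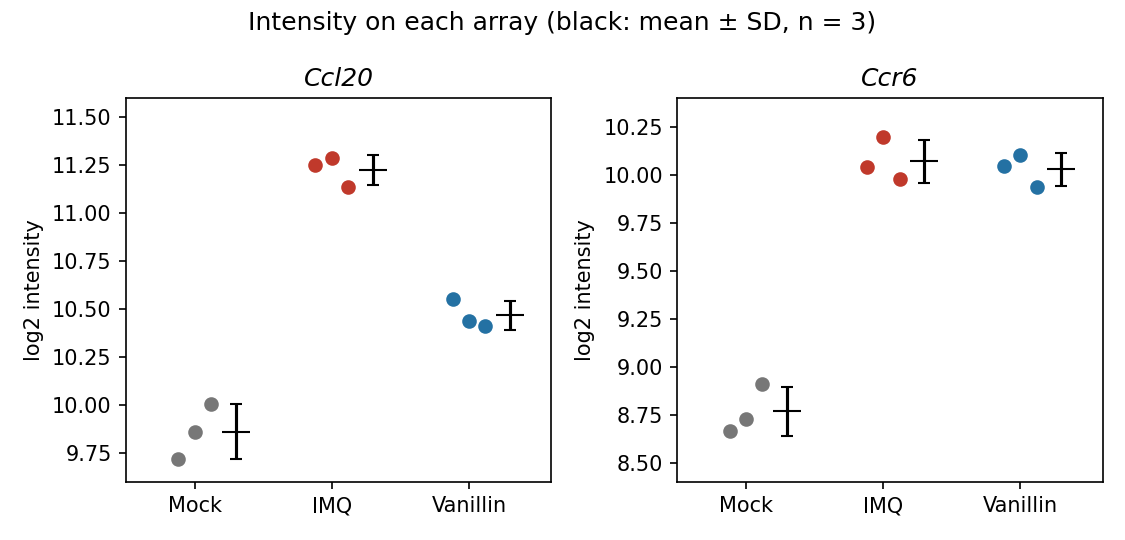
Log2 intensity of the Ccl20 probe (left) and the Ccr6 probe (right) on each of 3 arrays in the mock, IMQ and vanillin groups, with the mean and SD in black. The axes have the same span but different ranges, and Ccl20 with vanillin sits between 10.41 and 10.55, below every IMQ array, while Ccr6 with vanillin sits between 9.94 and 10.10, within the IMQ range of 9.98 to 10.20 on 2 arrays and just below it on the other.

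Both genes were higher after imiquimod. Ccl20 was 2.57-fold higher in IMQ than in mock skin, a log2 difference of 1.36 ± 0.10 (SE, n = 3 arrays per group, limma adjusted p = 1.65e-05). Ccr6 was 2.47-fold higher, a log2 difference of 1.30 ± 0.10 (SE, limma adjusted p = 2.19e-05). A call here is an adjusted p under 0.05 over all probes. Both genes were called, as were 53.6% of all probes (6330 higher and 7827 lower), and neither overlapped between groups, as held for 68.0% of probes. Such a call was therefore common on these arrays, and 3.62% of probes rose by more than Ccl20 and 4.03% by more than Ccr6.

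With vanillin the ligand and the receptor parted. Ccl20 was 40.8% below its IMQ level, written as a fold of 0.592 with a 95% interval of 0.506 to 0.692 (log2 difference -0.76 ± 0.10 SE, limma adjusted p = 0.00148). Of the 2 genes 1 was thus called, where 41.2% of all probes were (6412 higher and 4486 lower), and its groups did not overlap, as held for 58.5% of probes. A larger fall than that of Ccl20 was seen for 7.40% of probes. Ccr6 was not called, with a log2 difference of -0.04 ± 0.10 (SE, limma adjusted p = 0.755). Its 95% interval on the fold scale ran from 0.827 to 1.14, so a fall as large as that of Ccl20 lay outside the interval, while smaller changes in either direction did not.

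Against mock skin, both genes were still higher in the vanillin group. Ccl20 was 1.52-fold higher (log2 difference 0.61 ± 0.10 SE, limma adjusted p = 0.00219) and Ccr6 2.40-fold (log2 difference 1.26 ± 0.10 SE, limma adjusted p = 4.65e-05). Here 26.7% of all probes were called (3152 higher and 3893 lower) and 37.8% did not overlap. A larger rise than that of Ccl20 was seen for 6.91% of probes and a larger one than that of Ccr6 for 1.45%. The 3 comparisons reuse the same groups of arrays, so their values for a gene are not independent of each other.

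**Figure D2:**
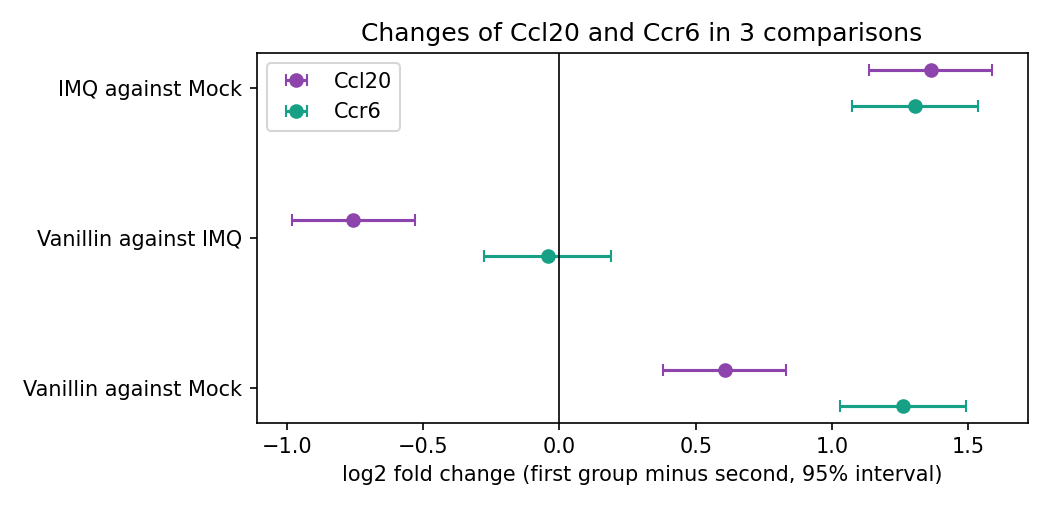
Log2 fold change (horizontal axis) of Ccl20 and Ccr6 in the 3 comparisons, each point with its 95% interval from limma. The intervals of both genes lie side by side for IMQ against mock (1.36 and 1.30), and for vanillin against IMQ the point of Ccl20 lies at -0.76 and that of Ccr6 at -0.04.

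Whether the genes changed unequally was asked within each array, by subtracting the log2 intensity of Ccr6 from that of Ccl20. The subtraction has no meaning as a ratio of transcripts, since the probes differ, but its change between groups does not depend on that. It read 1.05, 1.13 and 1.09 on the mock arrays. It read 1.21, 1.09 and 1.16 on the IMQ arrays. With vanillin it read 0.51, 0.34 and 0.47. The vanillin arrays lay below all others, and the mock and IMQ arrays overlapped. From IMQ to vanillin the difference changed by -0.71 (two-sided exact permutation p = 0.1, adjusted over 3 pairs of groups 0.15), and from mock to vanillin by -0.65 (exact permutation p = 0.1, adjusted 0.15). From mock to IMQ it changed by 0.06 (exact permutation p = 0.3, adjusted 0.3). The smallest p that 3 against 3 arrays can give is 0.1, so no pair of groups could pass at 0.05.

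**Figure D3:**
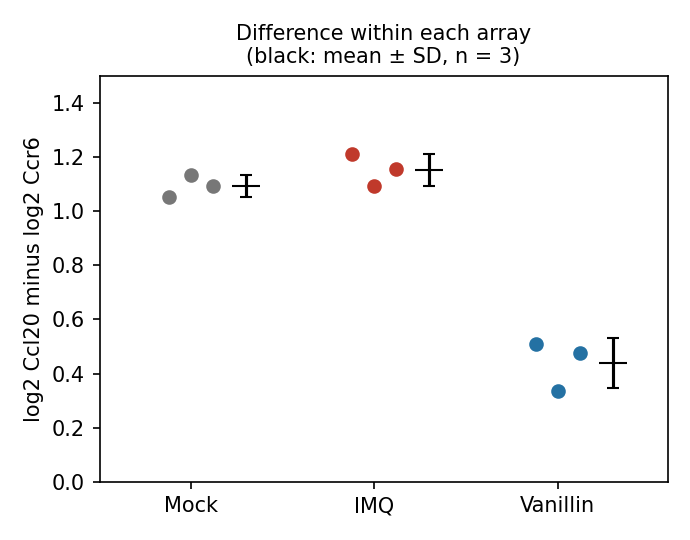
Log2 intensity of Ccl20 minus that of Ccr6 on each array (vertical axis, from 0) for the mock, IMQ and vanillin groups, with the mean and SD of 3 arrays in black. The mock and IMQ arrays lie between 1.05 and 1.21, and the vanillin arrays between 0.34 and 0.51.

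Among the other chemokines on a list of 37, 32 were measured. With imiquimod 9 were called higher, 11 lower and 12 not called, with a median log2 change of -0.17 beside -0.04 over all probes. Of the 32, only Ccl2, a monocyte attractant, had a larger estimated rise than Ccl20, at 1.47 ± 0.35 (SE, limma adjusted p = 0.00751), and its estimate was 0.96 without mock replicate 1. Cxcl13, a B cell attractant, rose by 1.17 ± 0.10 and Ccl4, which attracts monocytes and T cells, by 1.01 ± 0.10. Cxcl12, which dermal stroma makes, fell by 1.40 and the eosinophil attractant Ccl11 fell by 1.46.

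With vanillin added, the same 32 chemokines gave 11 called higher, 2 lower and 19 not called, with a median of 0.23 beside 0.03 over all probes. Cxcl2, a neutrophil attractant, rose by 3.24 ± 0.19 above IMQ, Ccl3, a monocyte attractant, by 2.45 ± 0.18 and Ccl4 by 1.66 ± 0.10. Beside Ccl20, the chemokines called lower were Ccl2 at -1.37 ± 0.35 (SE, limma adjusted p = 0.0159) and Cxcl16, the ligand of Cxcr6, at -0.47 ± 0.15 (SE, limma adjusted p = 0.0340). They are named here after their values were seen. Cxcl16 did not pass without any 1 of the IMQ replicates (adjusted p = 0.0811, 0.0630 and 0.111 for replicates 1 to 3), or without vanillin replicate 1 (adjusted p = 0.0961) or 2 (adjusted p = 0.107). Ordered by this change, Ccl20 was second from the bottom of the 33 chemokines.

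Of 22 other chemokine receptors 20 were measured, and with imiquimod 8 were called higher, 2 lower and 10 not called, with a median of 0.08. Ordered by the estimated rise, Ccr6 had 3 receptors above it among 21, namely Cxcr6, a receptor of effector T cells, at 2.37 ± 0.16, the neutrophil receptor Cxcr2 at 2.18 ± 0.14 and the monocyte and macrophage receptor Cx3cr1 at 1.94 ± 0.21. Ackr3, a scavenging receptor, fell by 0.69.

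For vanillin against IMQ the receptors gave 6 higher, 4 lower and 10 not called, with a median of -0.02. Of the 3 receptors that stood above Ccr6, Cx3cr1 changed by -1.74 ± 0.21 (SE, limma adjusted p = 0.00122) and Cxcr6 by -0.83 ± 0.16 (SE, limma adjusted p = 0.00546), where Ccr6 read -0.04. The third, Cxcr2, was higher by 0.51 ± 0.14 (SE, limma adjusted p = 0.0201), and missed the threshold without IMQ replicate 1 (adjusted p = 0.0639) or 3 (adjusted p = 0.0802) or vanillin replicate 1 (adjusted p = 0.0681) or 2 (adjusted p = 0.0627). Ccr1, a receptor of monocytes and neutrophils, rose by 1.06 ± 0.14, and the neutrophil receptor Cxcr1 rose by 1.02 ± 0.19. In the vanillin group 2 receptors had a larger rise over mock than Ccr6, namely Cxcr2 at 2.68 ± 0.14 and Cxcr6 at 1.54 ± 0.16. Over all 20, 5 were called higher than in mock, 1 lower and 14 not called.

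**Figure D4:**
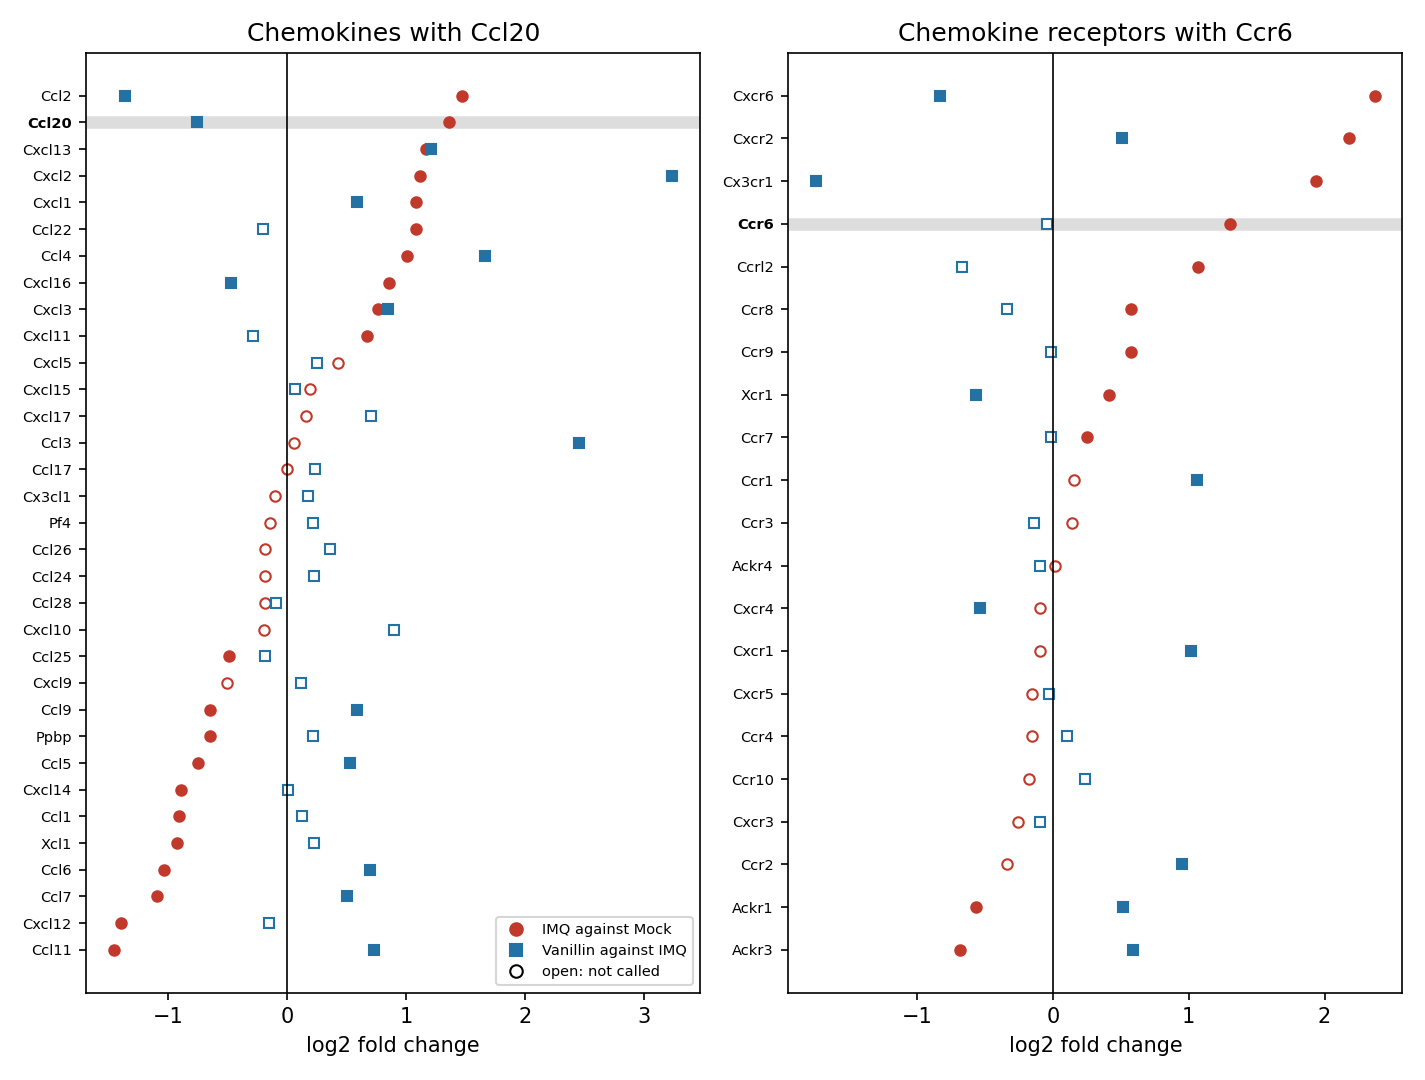
Log2 fold change (horizontal axis) of 33 measured chemokines (left) and 21 measured chemokine receptors (right) for IMQ against mock (red circles) and vanillin against IMQ (blue squares), ordered by the first, with filled symbols for genes called at a limma adjusted p under 0.05. Both use the IMQ arrays, so they are not independent, and the grey bands mark Ccl20 (1.36 and -0.76) and Ccr6 (1.30 and -0.04).

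Beta-defensins, the other kind of CCR6 ligand, were measured for 7 of 9 genes. With imiquimod 4 were called higher, 0 lower and 3 not called, with a median of 0.42 beside -0.04 over all probes. Defb14, reported to bind CCR6, rose by 4.36 ± 0.12 (SE, limma adjusted p = 9.49e-08), from 9.20 to 9.43 on the mock arrays to 13.62 to 13.70 on the IMQ arrays, and Defb6 rose by 0.88 ± 0.12. Defb4 read -0.10 ± 0.09 (SE, limma adjusted p = 0.406), a value called only with array weights (-0.21, adjusted p = 0.00653). With vanillin 0 were called higher, 3 lower and 4 not called than in IMQ skin, with a median of -0.18. Defb4 changed by -0.44 ± 0.09 (SE, limma adjusted p = 0.00729) and Defb14 read -0.46 ± 0.12 (SE, limma adjusted p = 0.0147), a call lost without IMQ replicate 1 (adjusted p = 0.0539) or 3 (adjusted p = 0.0541). In the vanillin group Defb14 was 3.91 ± 0.12 above mock and Defb4 read -0.53 ± 0.09 (SE, limma adjusted p = 0.00306). Over the 7, 4 were called higher than in mock, 1 lower and 2 not called. The counts of every gene list, before and after this one, stand beside the shares called among all probes. These were 53.6% with imiquimod, 41.2% from IMQ to vanillin and 26.7% from mock to vanillin. The all-probe medians were -0.04, 0.03 and 0.01 in that order. Whether any list departed from all probes was not tested.

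The cytokines that induce CCL20, with their receptors and adaptors, were measured for 28 of 30 genes. With imiquimod 11 of them were called higher, 4 lower and 13 not called, with a median of 0.41. The interleukin-36 genes rose, Il1f6 by 5.56 ± 0.08, Il1f9 by 4.36 ± 0.10 and Il1f8 by 1.64 ± 0.10. Il1a rose by 1.15 ± 0.08 and Il1b by 1.05 ± 0.11. Il23a, a subunit gene of interleukin-23, read 8.59, 8.87 and 8.68 in log2 on the mock arrays. It read 10.80, 10.37 and 10.80 on the IMQ arrays, a rise of 1.94 ± 0.20 (SE, limma adjusted p = 8.29e-05). Il12b, the gene of the other subunit, moved the opposite way. Its mean log2 level was 12.15 on the mock arrays and 11.27 on the IMQ arrays. Il17a (-0.09 ± 0.19 SE, limma adjusted p = 0.698), Tnf (0.24 ± 0.28 SE, limma adjusted p = 0.504) and Il17f (0.43 ± 0.20 SE, limma adjusted p = 0.105) did not pass, and Il17f passed without IMQ replicate 2 (adjusted p = 0.0192) or with array weights (adjusted p = 0.00321). The Il17a probe was dim, at an intensity percentile of 28.0, with log2 values from 7.45 to 7.76 over the mock and IMQ arrays.

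With vanillin 6 of these 28 genes were called higher than in IMQ skin, 5 lower and 17 not called, with a median of -0.16. Il1f9 changed by -0.75 ± 0.10 (SE, limma adjusted p = 0.00138), close in size to the -0.76 of Ccl20. Il23a changed by -1.30 ± 0.20 (SE, limma adjusted p = 0.00226), to 9.06, 9.22 and 9.78 on the vanillin arrays. Il12b averaged 11.35 on those arrays, beside 11.27 on the IMQ arrays. Il1b rose by 0.59 ± 0.11 (SE, limma adjusted p = 0.00437) and Il1f8 by 0.74 ± 0.10 (SE, limma adjusted p = 0.00179). Il17a read -0.35 ± 0.19 (SE, limma adjusted p = 0.171) and passed without vanillin replicate 1 (-0.56, adjusted p = 0.0228). Il17f read -0.02 ± 0.20 (SE, limma adjusted p = 0.936) and Tnf -0.59 ± 0.28 (SE, limma adjusted p = 0.127). The inducers thus did not all take the direction of Ccl20. Against mock, the vanillin group had 11 called higher, 1 lower and 16 not called. Il1b was 1.64 ± 0.11 above mock, and Il23a 0.64 ± 0.20 (SE, limma adjusted p = 0.0421), which missed the threshold in 7 of the 9 fits leaving out 1 array and was down to 0.43 without vanillin replicate 3. Il17a (-0.44 ± 0.19), Il17f (0.41 ± 0.20) and Tnf (-0.35 ± 0.28) did not pass, and Il17a passed without vanillin replicate 1 (adjusted p = 0.0126).

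NF-kB and mitogen-activated kinase factors were measured for 23 of 24 genes. Imiquimod gave 11 higher, 5 lower and 7 not called, with a median of 0.22, and vanillin against IMQ gave 6 higher, 1 lower and 16 not called, with a median of 0.20. The subunit gene Nfkb1 rose by 0.86 ± 0.08 with imiquimod and Rel by 0.93 ± 0.10. Those called lower included Tnfaip3, from a mean log2 level of 11.81 in mock to 11.08 in IMQ skin, and Mapk8, from 9.41 to 8.71. The inhibitor gene Nfkbia, itself an NF-kB target, rose by 0.95 ± 0.11 with imiquimod and changed by -0.53 ± 0.11 (SE, limma adjusted p = 0.00703) with vanillin. Fos, an AP-1 subunit, rose by 1.74 ± 0.16 with vanillin, and Elf3, an epithelial ETS factor, rose by 0.84 ± 0.14.

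Other genes that interleukin-17 induces in keratinocytes were measured for 19 of 20 genes, of which 8 also stand in another list used here. Imiquimod gave 11 higher, 2 lower and 6 not called, with a median of 0.62. S100a9, a calprotectin subunit, rose by 5.54 ± 0.09 and the iron-binding lipocalin Lcn2 by 2.20 ± 0.10. The probe of S100a8, the other calprotectin subunit, read a mean log2 level of 6.84 in mock and 6.78 in IMQ skin. It was dim, from 5.61 to 7.07 over all arrays beside an array median of 9.30. Its reading therefore cannot show an unchanged level of S100a8. S100a7a fell from a mean of 12.48 in mock to 10.43 in IMQ skin. Against IMQ, vanillin gave 10 higher, 3 lower and 6 not called, with a median of 0.43 and Ccl20 itself at -0.76. Il24, a cytokine of the interleukin-10 family, rose by 2.04 ± 0.09 and Cxcl3, a neutrophil attractant, by 0.85 ± 0.10.

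Markers of cells that can carry CCR6 were set beside the receptor. Type 17 T cell markers were measured for 9 of 13 genes. With imiquimod 3 were called higher, 2 lower and 4 not called, with a median of 0.43, and the mean log2 level of the 9 ran from 9.92 to 10.09 in mock, 10.37 to 10.45 in IMQ and 10.21 to 10.30 in vanillin skin. Cd163l1, a scavenger receptor gene of gamma delta T cells, rose by 1.24 ± 0.11 (SE, limma adjusted p = 4.34e-05) and the interleukin-1 receptor gene Il1r1 by 1.28 ± 0.13, while Zbtb16, a factor of innate-like T cells, fell by 0.70. The part of these cells in the levels of Ccr6 was not tested. With vanillin 1 was called higher than in IMQ skin, 1 lower and 7 not called. Cd163l1 read -0.19 ± 0.11 (SE, limma adjusted p = 0.205), and was called only with array weights (-0.30, adjusted p = 0.00839).

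Regulatory T cell markers were measured for 7 of 8 genes. With imiquimod 4 were called higher, 2 lower and 1 not called, with a median of 1.49, and against IMQ vanillin gave 1 higher, 4 lower and 2 not called, with a median of -0.39. Foxp3, the defining factor of these cells, read 8.89 to 8.90 in log2 on the mock arrays, 10.24 to 10.62 in IMQ and 9.20 to 9.80 in vanillin skin, with no overlap between groups. It rose by 1.61 ± 0.17 with imiquimod (SE, limma adjusted p = 9.57e-05) and changed by -1.07 ± 0.17 with vanillin (SE, limma adjusted p = 0.00252). Il2ra, the interleukin-2 receptor alpha chain, rose by 1.49 ± 0.23 and changed by -1.25 ± 0.23. The 2 called lower with imiquimod were Tnfrsf4 (-0.60) and Tnfrsf18 (-0.52, and 0.05 by its other probe, not called). Tnfrsf4 was the 1 called higher with vanillin (0.38), a call lost in 6 of the 9 fits leaving out 1 array. Ikzf2 read 2.51 and -1.57 by its brightest probe, but -0.05 and 0.33 by its other probe, which was not called in either comparison. The mean log2 level of the 7 markers ran from 8.91 to 9.16 in mock, 9.87 to 9.90 in IMQ and 9.28 to 9.42 in vanillin skin, and their part in the levels of Ccr6 was not tested either. Against mock, Foxp3 with vanillin read 0.54 ± 0.17 (SE, limma adjusted p = 0.0452), which missed the threshold in 7 of the 9 fits leaving out 1 array and was down to 0.35 without vanillin replicate 3.

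B cell markers were measured for 8 of 9 genes. With imiquimod 2 were called higher, 1 lower and 5 not called, with a median of -0.05, and against IMQ vanillin gave 2 higher, 0 lower and 6 not called. Langerhans and dendritic cell markers, 11 of 13 measured, gave 4 higher, 3 lower and 4 not called with imiquimod, and 3 higher, 5 lower and 3 not called with vanillin against IMQ. Cd207, the langerin gene of Langerhans cells, read -0.36 ± 0.15 (SE, limma adjusted p = 0.0748) with imiquimod, and passed without mock replicate 3 (adjusted p = 0.0288), with array weights (adjusted p = 0.00922) or with the replicate number as a block (adjusted p = 0.0396). With vanillin against IMQ it read 0.45 ± 0.15 (SE, limma adjusted p = 0.0443), which missed the threshold in 6 of the 9 fits leaving out 1 array, and against mock 0.09 ± 0.15. The median change of these 11 markers was 0.30 with imiquimod and -0.20 with vanillin against IMQ. With imiquimod the 3 called lower were Cd209a, Mgl2 and Itgax. Cd209a went from a mean log2 level of 9.53 in mock to 6.98 in IMQ skin. Mgl2, a lectin of dermal dendritic cells, fell by 2.33. Itgax went from 9.03 to 8.57, a call lost in 4 of the 9 fits leaving out 1 array. Others rose. Epcam rose by 0.94 (0.09 by its other probe, not called), and H2-Aa went from a mean log2 level of 15.29 in mock to 15.81 in IMQ skin. From IMQ to vanillin the 3 called higher were Cd207, Cd209a (6.98 to 7.71) and Itgax (8.57 to 9.24). The Cd209a call was lost in 2 of the 9 fits leaving out 1 array. Those called lower included Cd74 at -1.04 (-0.42 and -0.97 by its other probes, both called) and Mgl2, from 10.21 to 9.57.

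Markers of the tissues that make up the samples also moved between groups. Keratinocyte markers, which mark a known source of Ccl20, gave 3 higher, 1 lower and 5 not called of 9 with imiquimod, with a median of 0.18, and 0 higher, 1 lower and 8 not called with vanillin against IMQ, with a median of 0.04. The largest rises with imiquimod were those of the keratin Krt1, at 3.43 ± 0.12, and of involucrin, Ivl, at 1.17 ± 0.08. The mean log2 level of the 9 ran from 15.13 to 15.19 in mock, 15.73 to 15.76 in IMQ and 15.60 to 15.67 in vanillin skin. The basal keratin Krt14 read 0.18 and 0.04 in these comparisons and was not called in either. Its highest log2 value in each group equalled that of Krt10 (18.51, 18.61 and 18.72, mock first and vanillin last). Since the deposited intensities were equalised, a probe this bright had little room to rise, so its lack of a call cannot show an unchanged level. Skeletal muscle markers gave 0 higher and 5 lower of 8 with imiquimod (median -0.46) and 7 higher and 0 lower with vanillin against IMQ (median 0.48). Their mean log2 level ran from 15.01 to 15.10 in mock, 14.51 to 14.54 in IMQ and 14.99 to 15.05 in vanillin skin. Adipocyte markers gave 0 higher and 8 lower of 10 with imiquimod and 8 higher and 1 lower with vanillin, with a mean level of 13.63 to 13.77 in mock, 12.86 to 12.92 in IMQ and 13.27 to 13.33 in vanillin skin. The part of these tissues in the changes of Ccl20 and Ccr6 was not tested.

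The genes most like each member were taken by the Pearson correlation of log2 intensity over the 9 arrays, among 16636 other named genes with 1 probe each. The correlation mostly reflects the 3 group levels that the arrays share, and it is given as a description. For Ccl20 they were Slco6d1 (r = 0.996), an organic anion transporter gene, Gtf2a1l (r = 0.993), a relative of the transcription factor TFIIA, Map2 (r = 0.993), which encodes a microtubule protein, the cohesin acetyltransferase gene Esco1 (r = 0.992) and Gfod2 (r = 0.992). For Ccr6 they were the homeobox gene Pitx1 (r = 0.998), Trabd (r = 0.997), the membrane protein gene Slitrk6 (r = 0.996), Tead4 (r = 0.995), a factor of the Hippo pathway, and Pdss1 (r = 0.994), an enzyme gene of coenzyme Q synthesis. These levels of likeness were not rare, since 1036 genes had r above 0.9 with Ccl20 and 878 with Ccr6. None of the chemokines, receptors or cell markers on the lists used here was among the 5 nearest genes of either member. Ccl20 and Ccr6 had r = 0.848 with each other over the 9 arrays, with the mock arrays lowest for both.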

How the data were processed

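Total RNA of 3 groups was measured on 9 one-colour arrays. The deposited table holds linear intensity values for 26423 probes, made with limma per the submitters' processing notes, with scanner, background correction and filters not given in the sources used here. Intensity values at matched ranks differed by at most 3.45% between arrays above an intensity of 100, so the deposited intensities had been equalised, which hides any change of total signal. Values under 1 were set to 1 and log2 was taken. limma 3.58.1 in R 4.3.3 fitted a coefficient per group over all 9 arrays, adjusted by Benjamini-Hochberg over all probes, with calls at an adjusted p under 0.05. The code was tested on simulated data. Symbols came from the platform annotation (20377 probes had 1 symbol, 6046 none), with 2126 updated through RefSeq synonyms. Of several probes for 1 gene, the brightest on average was used. Named were both members, the 5 genes most correlated with each, up to 4 members of each list with the smallest p per comparison, and Il17a, Il17f, Il23a, Il1b, Tnf, Defb4, Defb14, Foxp3 and Cd207 in every comparison; some genes of that rule are not reported here. Krt14, Krt10, Ccl2, Cxcl16, Il12b, S100a8 and S100a7a were added after their values were seen. The members and lists were chosen with earlier results of these data known. Alternatives changed the scaling, dim-probe filter, offset, prior, weights, arrays, replicate block, threshold and probe rule, and left out each array in turn.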

Additional observations from a re-analysis of the deposited data

How the results depend on the processing

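The changes of Ccl20 in all 3 comparisons, and those of Ccr6 against mock, kept their direction and their call under all 19 alternatives. For IMQ against mock the log2 change of Ccl20 ran from 1.29 to 1.43 and that of Ccr6 from 1.21 to 1.37. For vanillin against IMQ that of Ccl20 ran from -0.80 to -0.72 (adjusted p up to 0.0106), and for vanillin against mock from 0.54 to 0.68. Ccr6 was never called for vanillin against IMQ, and its estimate near 0 turned positive with array weights (0.014) and without IMQ replicate 2 (0.019) or vanillin replicate 3 (0.0025), with a range of -0.089 to 0.019 when 1 array was left out; the cause was not tested. The within-array difference kept its sign under all 12 alternatives. Some of these could not change it, namely the mean of a gene's probes and leaving out an array of the group not compared. Over the 191 measured genes of all lists, the number called lower for vanillin against IMQ was 29, but 50 with array weights, 14 at an adjusted p under 0.01 and 17 to 34 when 1 array was left out. Among the genes within the naming rule, those that turned sign under the mean of a gene's probes, with a call in either setting, were Trp63 (-0.38 with imiquimod and -0.33 with vanillin, each against mock), Ccr2 (0.31 with imiquimod) and Pnpla2 (0.0080 with vanillin, against mock). Other listed genes also had probes of opposite sign, such as Ccl25, called lower with imiquimod at -0.49 and at 0.53 by its other probe. Ccl2 for vanillin against mock read -0.40 (adjusted p = 0.0233) without mock replicate 1 and 0.38 without mock replicate 3, against 0.10 with all arrays. With the replicate number as a replicate block the adjusted p of Ccl20 was 0.000206, 0.00503 and 0.0101 and that of Ccr6 0.000218, 0.781 and 0.000526 in the same order of comparisons, which changed no call of either. The labels do not say that a number pairs samples, and same-numbered arrays had deviations correlated from -0.265 to 0.222.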

Other observations

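CCR6 signals through Gi proteins and is switched off by receptor kinases and arrestins. All 13 genes listed for these steps were measured. With imiquimod 7 were called higher, 2 lower and 4 not called, with a median log2 change of 0.29. Gnai1 and Gnai2, which encode inhibitory alpha subunits, rose by 0.91 ± 0.09 and 0.64 ± 0.08, and the receptor kinase gene Grk2 rose by 0.84 ± 0.12, while Grk5, another receptor kinase gene, fell by 1.81 (limma adjusted p = 1.14e-05). With vanillin against IMQ 3 were higher, 3 lower and 7 not called, with a median of 0.03. Gng2, a gamma subunit gene, rose by 0.77 ± 0.13 and Gnai2 changed by -0.42 ± 0.08 (SE, limma adjusted p = 0.00417).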
